A study of Mus musculus with 6 samples.

Results

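Apoptosis, necroptosis and pyroptosis are the main programmed forms of cell death, and 38 genes of these pathways were followed by RNA-seq in the mouse hippocampus 24 h after traumatic brain injury (TBI). The genes were taken from a list of symbols, not by their measured levels, although with earlier results of these data known. All 38 were found among the 52550 gene identifiers of each count table. By role, they comprised 8 pro-survival genes, 8 BH3-only genes, 5 effectors of the mitochondrial pathway, 5 caspases, 3 death receptor genes, 3 necroptosis genes and 6 inflammasome genes. All mice were males, young adults by the study's methods, of a strain given as C57BL/6 in the labels and as C57B6/J in the methods, with no transgene named in the labels. The 3 TBI mice received a controlled cortical impact of moderate severity through a craniotomy over the right parietal bone, a model in which a piston deforms the exposed cortex above the hippocampus. The 3 sham mice underwent the same ketamine and xylazine anaesthesia, incision and craniotomy without the impact, so that both groups carried the surgery. Each library (Sham1 to Sham3 and TBI1 to TBI3) was made from total RNA of 1 mouse, with 31630936 to 41771872 estimated counts in total. By the methods, the whole hippocampus was taken and the side opposite the impact was exposed as well, but whether both sides were joined in a library is not given in the sources used here.

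In the mitochondrial pathway of apoptosis, BH3-only proteins bind the pro-survival proteins of the Bcl-2 family or activate Bax and Bak directly, and the pores formed by Bax and Bak release cytochrome c, which joins Apaf1 to activate Casp9. Death receptors such as Fas recruit Fadd and Casp8. Where Casp8 is held back, Ripk1 and Ripk3 can instead drive Mlkl to rupture the plasma membrane, which is necroptosis. In pyroptosis, an inflammasome such as Nlrp3 with its adaptor Pycard activates Casp1, which matures interleukins and opens the pore protein Gsdmd. In the injured hippocampus, these pathways are known for the loss of neurons, and the inflammasome genes are known mainly from microglia.

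No member passed the thresholds of the study (a fold change over 1.5 in either direction with p under 0.05 and adjusted p under 0.1). Of the 38 members, 36 had enough counts to be tested, and edgeR's quasi-likelihood test called 0 of them, as it did of all 18795 genes tested (0.0%). The adjusted p of the members lay between 0.982 and 0.996. DESeq2, the tool used by the study, also called 0 members, beside 46 of 20786 genes (0.221%), and the lowest adjusted p of a member was 0.513. At an unadjusted p under 0.05, edgeR found 2 of the 36 members (5.56%), the BH3-only gene Bcl2l11 and the initiator caspase gene Casp9, both lower in TBI, beside 4.29% of all genes. DESeq2 found 4 of 38 members at that level (10.5%), Xiap and Casp12 with both of these, beside 4.08% of the 28289 genes in that fit. With edgeR, the count was 1 without Sham1 or Sham2, beside 2.49% and 3.39% of all genes, and 4 without Sham3 or TBI2, beside 4.52% and 5.82%. Only Bcl2l11 had 3 TBI libraries that did not overlap the 3 sham libraries (2.78% of the members tested), beside 10.2% of all genes. With edgeR and all libraries, both shares were near or below the background, so neither is a result about the members as a set. The share of 10.5% from DESeq2 was above its background, and rests on 4 genes of which none was called. On the 18795 genes kept by the edgeR filter, DESeq2 gave 11.1% of the members beside 5.71% of all genes. Of the 36 members, 17 were higher and 19 lower in TBI, and the median of their log2 fold changes was -0.08, beside 0.01 over all genes. In 32 of the 36 members, the log2 fold change moved by over 1.5 times or turned its sign without 1 of the 6 libraries, the exceptions being Bcl2, Bcl2l11, Casp9 and Casp12.

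Sham2 and TBI1 stood apart from the other libraries of their groups in cell type markers. The astrocyte filament gene Gfap had a level, as TMM-scaled CPM, of 4055 in Sham2 against 623 and 632 in Sham1 and Sham3, and the summed CPM of 6 oligodendrocyte genes was 2860 in Sham2 against 8540 to 10500 in the other 5 libraries. In TBI1, the summed CPM of 7 striatal neuron genes was 3740, against 133 to 190 elsewhere, and C1ql2, a gene of dentate granule cells, was at 2.45 CPM against 39.6 to 86.0. The 7 striatal genes all had a higher mean in TBI, 5 of them at an unadjusted p under 0.05 (edgeR). Of these, Six3 was also higher in TBI2 and TBI3, at 6.38 and 9.33 CPM against 0.947 to 4.43 CPM in sham. The choroid plexus sum was 50.3 in Sham2, 237 in TBI1 and 251 in TBI3, against 2010 to 2330 in the other 3 libraries. The summed CPM of 8 hippocampal neuron genes was 2480 to 2970 in all 6 libraries, but most of it came from Snap25, a gene of all neurons, at 1700 to 2221 CPM. Of these 8 genes, 6 had a lower mean in TBI (0 of the list had an unadjusted p under 0.05), and Prox1 and Fibcd1 did not overlap between the groups. In TBI1, Prox1 was at 19.6 CPM against 56.0 to 96.0 in the other libraries, Fibcd1 at 13.1 against 49.5 to 142.4, Neurod6 at 29.3 against 84.7 to 252.4, and Dsp at 1.10 against 14.5 to 54.2. Wfs1 and Rbfox3 of the same list were instead highest in TBI1, at 275.6 CPM against 64.4 to 175.4 and at 286.4 CPM against 195.1 to 260.7. The 6 lymphocyte genes together did not exceed 0.537 CPM in any library. In such bulk tissue, fewer cells of a type, less RNA per cell and a difference in the tissue taken cannot be told apart. Each count was therefore repeated without Sham2 and TBI1, a choice made after these levels had been seen. Without them, 0 members were called, and 2 were at an unadjusted p under 0.05 (Xiap and Bcl2l11), beside 5.02% of all genes.

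**Figure D1:**
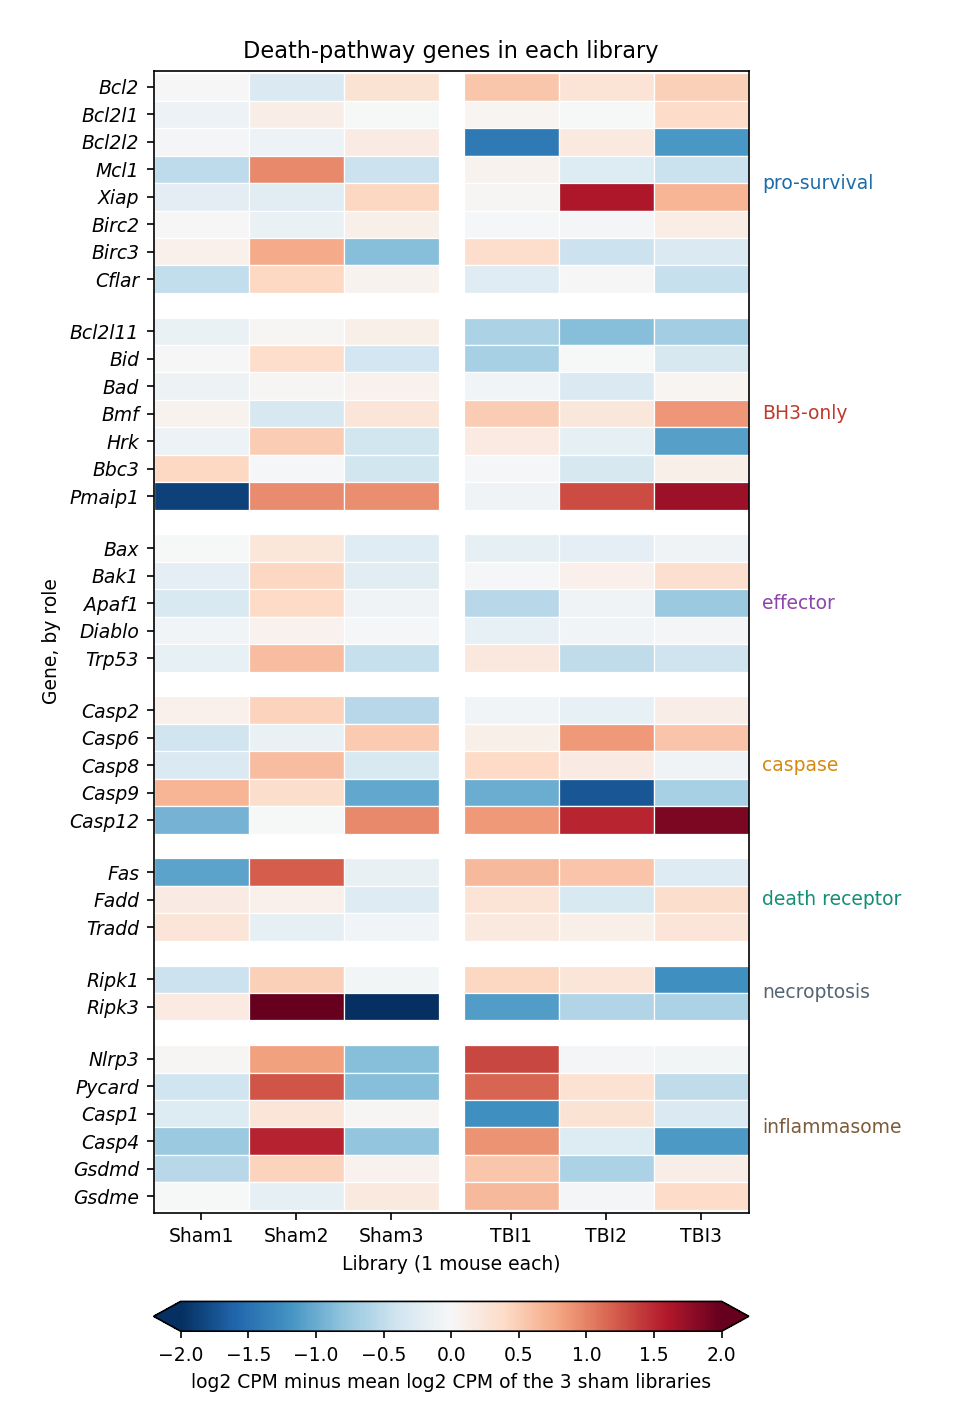
Each row is 1 of the 36 members tested and each column 1 library; the colour gives log2 CPM minus the mean log2 CPM of the 3 sham libraries, so that red is above and blue below the sham mean and values beyond 2 take the end colour. Bcl2l11 is blue in all 3 TBI libraries, and the column of Sham2 is red for most effector and inflammasome genes.

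The pro-survival genes showed no common direction, with 4 of 8 members higher and 4 lower in TBI, none of them at an unadjusted p under 0.05 and a median log2 fold change of -0.10 (0.22 without Sham2 and -0.01 without TBI2). Bcl2, the founding member of the family, was at 17.9, 14.5 and 21.7 CPM in Sham1 to Sham3 and at 26.1, 21.5 and 24.7 CPM in TBI1 to TBI3. The groups overlapped narrowly, since TBI2 lay just under Sham3. Its log2 fold change was 0.42 ± 0.19 (SE), with a 95% interval of -0.04 to 0.88 (edgeR, adjusted p = 0.982). Xiap, which inhibits caspases directly, had the largest change of the group. Its levels were 22.8, 22.6 and 35.7 CPM in sham and 26.8, 81.0 and 42.1 CPM in TBI. TBI2 alone was far above the rest, while TBI1 lay within the sham range. The log2 fold change of 0.89 ± 0.42 (adjusted p = 0.982) was 0.34 without TBI2.

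Bcl2l2, the gene of Bcl-w, had the highest level per length of all members as the mean of both groups, at 38.2 CPM per kb of exonic sequence, but lay below Bax in TBI (30.1 against 34.5) and above it in sham (46.1 against 38.7). It stood at 199.6, 188.6 and 229.4 CPM in sham and at 76.0, 235.7 and 91.9 CPM in TBI. TBI1 and TBI3 were far below every sham library, and TBI2 was above every one, so that the groups overlapped. The log2 fold change was -0.61 ± 0.42 (adjusted p = 0.982) with all libraries and -1.30 without TBI2. The gene Gm20521 shares 594 exonic bases on the same strand (13.3% of those of Bcl2l2), and was at 5.19, 0.0 and 0.0 CPM in sham and 2.84, 0.0 and 1.602 CPM in TBI. How the counting divided these reads was not tested. Mcl1, a short-lived protein that holds Bak and BH3-only proteins, was at 76.7, 214.6 and 81.6 CPM in sham and at 115.3, 90.8 and 80.7 CPM in TBI. Sham2 alone was high, and the log2 fold change of -0.38 with all libraries was 0.27 without it.

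Of the other pro-survival genes, Bcl2l1 and Birc2 were the steadier. Bcl2l1, the gene of Bcl-xL, ranged from 48.3 to 68.8 CPM over the 6 libraries, with a log2 fold change of 0.15 (95% interval -0.21 to 0.51). Birc2, the gene of cIAP1, ranged from 36.3 to 43.9 CPM, with a log2 fold change of 0.03 (95% interval -0.28 to 0.33). Both intervals lay within a fold of 1.5 in either direction. Cflar, which encodes the Casp8 inhibitor c-FLIP, ranged from 26.9 to 50.5 CPM and was highest in Sham2. Birc3, the gene of cIAP2 and a neighbour of Birc2 on chromosome 9, was low at 1.02 to 3.09 CPM and was also highest in Sham2.

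Among the BH3-only genes, Bcl2l11 was lower in every TBI library than in any sham library. Of the 7 members tested, 2 were higher and 5 lower in TBI, 1 was at an unadjusted p under 0.05, and the median log2 fold change was -0.11 (-0.29 without Sham3, -0.18 without TBI3 and -0.02 without TBI2). Bcl2l11 encodes Bim, which binds all pro-survival Bcl-2 proteins and can activate Bax, and lies on the plus strand at chr2:128126038-128162547 (GRCm38, gene ENSMUSG00000027381.16). It was at 4.49, 5.01 and 5.34 CPM in sham and at 3.19, 2.75 and 3.06 CPM in TBI. The 3 libraries of each group lay close together, with a sham mean of 4.95 ± 0.43 CPM and a TBI mean of 2.999 ± 0.22 CPM (SD, 3 mice each). The log2 fold change was -0.72 ± 0.23 (SE), with a 95% interval of -1.26 to -0.18 (edgeR, adjusted p = 0.982). It was not called after adjustment over all genes, and its adjusted p ranged from 0.323 to 1.0 over the alternatives. The log2 fold change lay between -0.78 and -0.67 whichever single library was left out, and was -0.76 without Sham2 and TBI1. Without Sham3, the unadjusted p of edgeR was over 0.05. Sham2 was the middle one of the sham libraries for this gene, and TBI1 was the highest of the TBI libraries.

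As the single member without overlap, Bcl2l11 is shown with the 250 bases before its RefSeq transcript start (chr2:128125788-128126037, plus strand, GRCm38.p6, 72.0% G and C). Capitals mark matches to 3 short motifs on either strand.
Bcl2l11 promoter: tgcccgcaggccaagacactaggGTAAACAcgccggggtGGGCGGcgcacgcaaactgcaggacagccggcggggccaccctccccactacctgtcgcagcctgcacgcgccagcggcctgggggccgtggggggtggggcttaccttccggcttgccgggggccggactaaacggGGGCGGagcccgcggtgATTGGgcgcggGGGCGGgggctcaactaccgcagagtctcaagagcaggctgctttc
The FOXO motif TGTTTAC matched on the minus strand at -227 to -221, counted back from the base before the start as -1, and 3.17% of the 32851 promoters of this length held it. The GC box GGGCGG matched at -211 to -206, -74 to -69 and -46 to -41 (32.7% of promoters), and the CCAAT box matched on the minus strand at -57 to -53 (33.8% of promoters). None of these matches overlapped another. The other motifs searched were AP-1 (TGANTCA, 6.75% of promoters), CRE (TGACGTCA, 1.55%), the E-box (CACGTG, 6.02%), the TATA box (TATAAA, 12.4%) and a p53 half-site (7.13%), and none of them matched here. Of the 34 members with a promoter in the RefSeq table, Bbc3, Bcl2l11 and Casp4 held the FOXO motif and 21 held a GC box. These are matches of letters and not shown sites of binding.

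No other BH3-only gene had an unadjusted p under 0.05. Hrk, a BH3-only gene known for its expression in neurons, had the highest level per length of the group as the mean of all libraries, at 13.1 CPM per kb, although Bad was above it in TBI (12.6 against 11.7). It was at 73.5, 113.4 and 61.3 CPM in sham and at 91.0, 70.7 and 37.1 CPM in TBI. Sham2 was the highest library and TBI3 the lowest, and the groups overlapped (log2 fold change -0.32 ± 0.37, adjusted p = 0.982). The log2 fold change of Hrk was -0.03 without Sham2, -0.04 without TBI3, -0.50 without Sham3 and -0.62 without TBI1. Bad, which growth factor signalling holds inactive by phosphorylation, was nearly as high per length, at 13.03 CPM per kb, and ranged only from 28.2 to 36.4 CPM. Its 95% interval of -0.43 to 0.23 lay within a fold of 1.5. Bad shares 20.5% of its exonic bases with Gpr137 on the opposite strand, a gene at 79.6 to 107.5 CPM. Bmf, which is tethered to the cytoskeleton, was at 4.36 to 6.56 CPM in sham and 6.45 to 10.1 CPM in TBI, with a log2 fold change of 0.54 ± 0.27 (adjusted p = 0.982). Bid, which Casp8 cleaves to link death receptors to mitochondria, ranged from 9.16 to 18.8 CPM (log2 fold change -0.34 ± 0.26). It shares 17.7% of its exonic bases with Bcl2l13 on the opposite strand.

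The p53 targets among the BH3-only genes showed no common direction. Bbc3, the gene of Puma, ranged from 6.28 to 10.9 CPM, with a log2 fold change of -0.11 ± 0.27. Pmaip1, the gene of Noxa, was at 0.469 CPM in Sham1 and at 1.62 to 5.59 CPM in the other 5 libraries, a spread of 11.9-fold between the highest and the lowest, and its log2 fold change was 0.70 ± 0.77 (adjusted p = 0.982). That value was 0.22 without Sham1, 0.31 without TBI3 and 1.07 without TBI1. Bik had 5 counts in TBI2 (0.158 CPM) and 0 in each of the other libraries, and was not tested.

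The effectors of the mitochondrial pathway had log2 fold changes of -0.47 to 0.11. Of 5 members, 1 was higher and 4 were lower in TBI, 0 were at an unadjusted p under 0.05, and the median log2 fold change was -0.17. In all 5, Sham2 was the highest of the 6 libraries. The median was -0.03 without Sham2 and -0.28 without Sham3. Bax, the pore-forming protein, had the highest level per length of the group at 36.6 CPM per kb, and was at 60.0, 71.8 and 51.2 CPM in sham and 53.4, 52.7 and 57.0 CPM in TBI. The TBI libraries lay inside the sham range, and the 95% interval of its log2 fold change of -0.17 was -0.52 to 0.19. Bak1, the partner of Bax, ranged from 12.6 to 19.8 CPM (log2 fold change 0.11 ± 0.23), and shares exonic bases with Ggnbp1 on the opposite strand.

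Apaf1, the scaffold on which Casp9 is activated, had the largest change of the effectors. It was at 15.4, 25.2 and 18.1 CPM in sham and at 13.1, 18.0 and 11.4 CPM in TBI. TBI2 was within the sham range, and the other TBI libraries were below it. Its log2 fold change of -0.47 ± 0.26 (adjusted p = 0.982) was -0.24 without Sham2. Diablo, the gene of Smac, which removes Xiap from caspases, had the narrowest spread of all members tested, from 24.4 to 29.1 CPM, with a 95% interval of -0.39 to 0.20. It shares 40.9% of its exonic bases with other genes, among them 1193 bases with Gm49027 on the same strand, a gene with at most 0.0988 CPM. Trp53, the gene of p53, was at 29.8 CPM in Sham2 and at 13.7 to 22.5 CPM in the other 5 libraries, and its log2 fold change of -0.27 was 0.11 without Sham2.

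**Figure D2:**
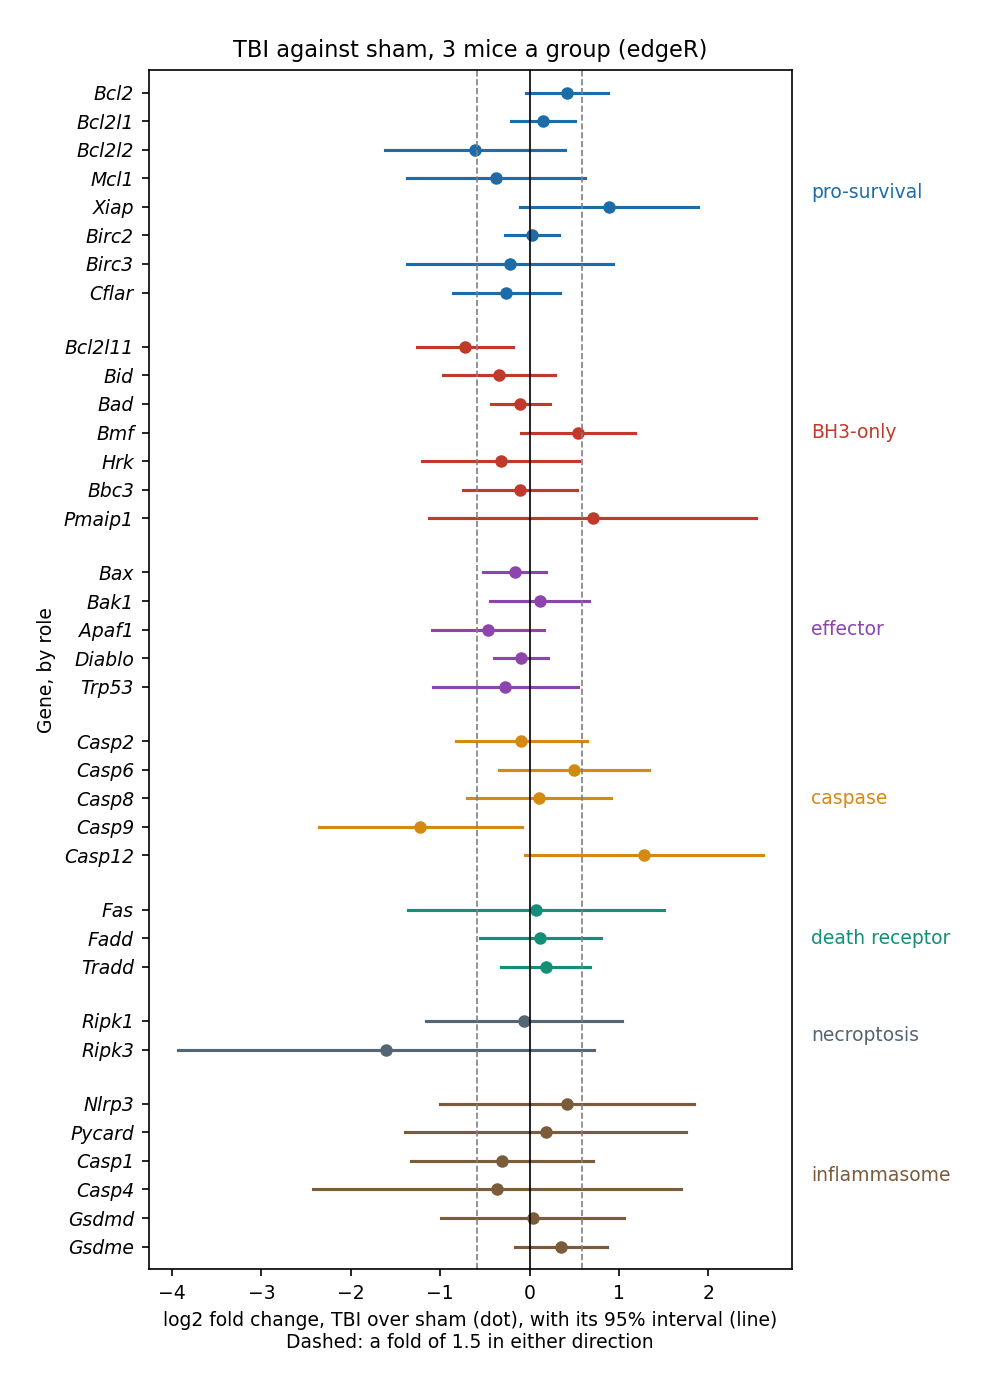
Dots give the log2 fold change of TBI over sham for the 36 members tested, by role, and lines its 95% interval from edgeR with 3 mice a group; dashed lines mark a fold of 1.5. Only the intervals of Bcl2l11 and Casp9 lie wholly on 1 side of 0, and the interval of Ripk3 is the widest.

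The caspases held Casp12, with the largest positive log2 fold change of the members, and Casp9, with the most negative one after Ripk3. Of 5 members, 3 were higher and 2 lower in TBI, 1 was at an unadjusted p under 0.05, and the median log2 fold change was 0.10. That median was 0.41 without Sham2 and 0.22 without TBI3, and turned to -0.04, -0.06 and -0.03 without Sham1, Sham3 and TBI1. Casp9, the initiator caspase of the mitochondrial pathway, had the highest level per length of the group, at 2.90 CPM per kb. It was at 30.2, 23.9 and 9.14 CPM in sham and at 9.48, 5.75 and 11.9 CPM in TBI. Sham1 and Sham2 were above every TBI library, whereas Sham3 was below TBI1 and TBI3, so that the groups overlapped. The log2 fold change was -1.22 ± 0.47 (SE), with a 95% interval of -2.36 to -0.09 (edgeR, adjusted p = 0.982). It lay between -1.59 and -0.86 when single libraries were left out, and the unadjusted p was over 0.05 without Sham1, Sham2, TBI1 or TBI2. Casp9 lies on the plus strand at chr4:141793612-141815976 (GRCm38). It shares 94 exonic bases with Cela2a and Ctrc on the opposite strand, and Cela2a was at 0.374 to 0.521 CPM.

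The 250 bases before the RefSeq start of Casp9 (chr4:141793362-141793611, plus strand, GRCm38.p6, 66.0% G and C) are shown for comparison with Bcl2l11, the other member at an unadjusted p under 0.05. Capitals mark the GC box GGGCGG, the only motif of the 8 searched that matched (both strands).
Casp9 promoter: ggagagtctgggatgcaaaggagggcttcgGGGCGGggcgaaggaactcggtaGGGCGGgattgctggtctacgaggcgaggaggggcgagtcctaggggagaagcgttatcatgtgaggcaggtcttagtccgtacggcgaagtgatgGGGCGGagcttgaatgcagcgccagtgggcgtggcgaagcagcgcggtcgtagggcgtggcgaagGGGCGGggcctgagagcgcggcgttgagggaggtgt
The GC box matched 4 times, at -220 to -215, -197 to -192, -101 to -96 and -36 to -31. Unlike that of Bcl2l11, this window held no match to the FOXO motif or the CCAAT box.

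Casp12, a caspase of the endoplasmic reticulum, was low and was higher on average in TBI. It was at 0.420, 0.798 and 1.56 CPM in sham and at 1.47, 2.31 and 2.98 CPM in TBI. TBI2 and TBI3 were above every sham library, and TBI1 lay just under Sham3. Its log2 fold change was 1.28 ± 0.56, with a 95% interval of -0.05 to 2.61 (adjusted p = 0.982), and lay between 0.93 and 1.88 when single libraries were left out. Casp6, an executioner caspase known from axon degeneration, was at 2.07 to 3.91 CPM in sham and 2.94 to 4.96 CPM in TBI (log2 fold change 0.49 ± 0.35). Casp2 ranged from 3.39 to 6.88 CPM and Casp8 from 3.44 to 6.63 CPM. Both were highest in Sham2, and their log2 fold changes of -0.09 ± 0.31 and 0.10 ± 0.34 were well within their errors.

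**Figure D3:**
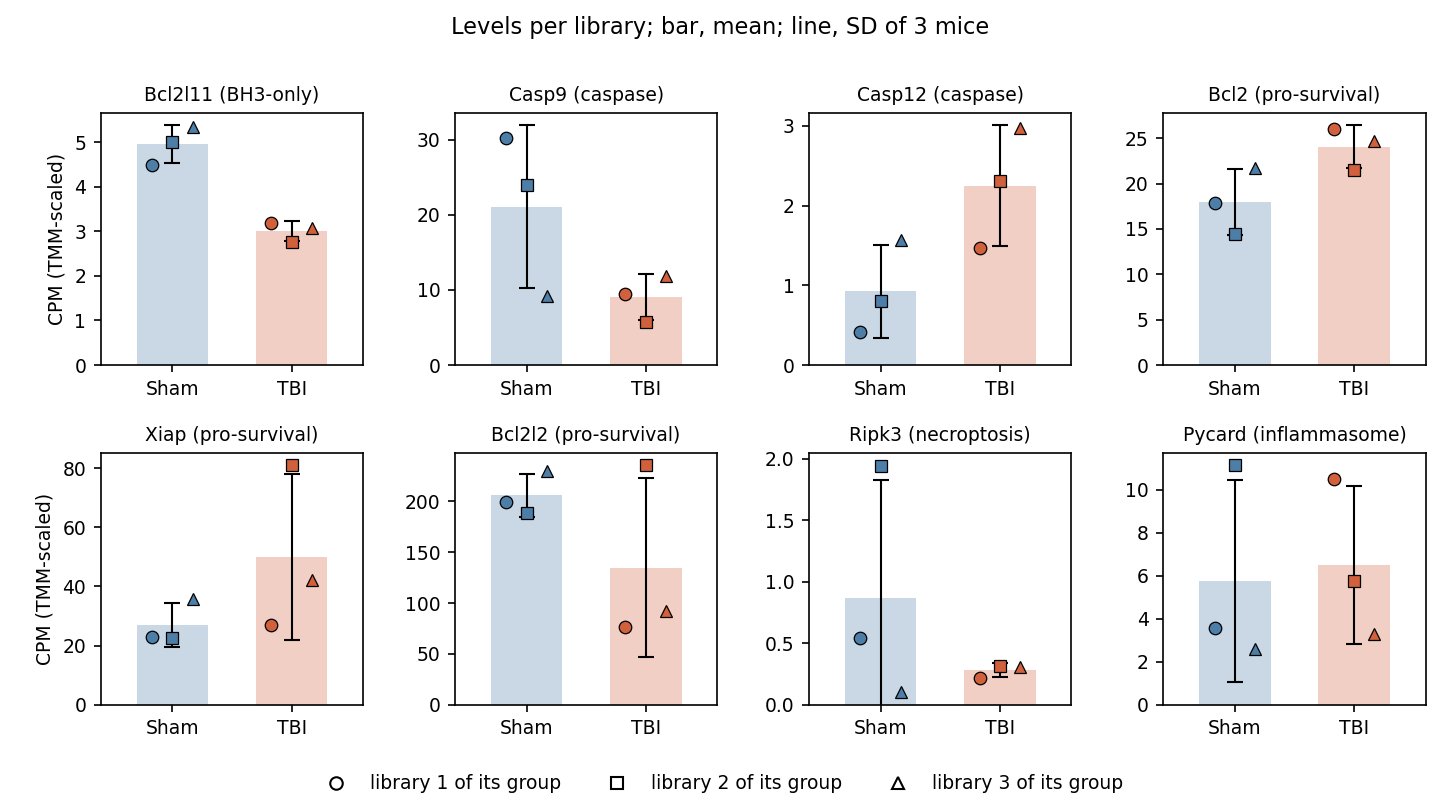
TMM-scaled CPM of 8 members by group, with circles, squares and triangles for libraries 1, 2 and 3, bars for the mean and lines for the SD of 3 mice; the y axes differ and start at 0, where the line of Ripk3 in sham is cut. The points of Bcl2l11 do not overlap between groups, whereas single libraries set the means of Xiap, Bcl2l2, Ripk3 and Pycard.

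The 3 death receptor genes each had a higher mean in TBI, and the median of their log2 fold changes was 0.12, with none at an unadjusted p under 0.05. With single libraries left out, that median lay between -0.00116 (without Sham3) and 0.21 (without Sham1 or TBI2), and was 0.04 without TBI1. Tradd, the adaptor of the TNF receptor, had both the highest level per length of the group, at 3.58 CPM per kb, and its largest change. It was at 7.46, 5.46 and 5.89 CPM in sham and at 7.10, 6.73 and 7.45 CPM in TBI. Sham1 was just above all TBI libraries and the other sham libraries were below them (log2 fold change 0.18 ± 0.21, adjusted p = 0.982). Fadd, the adaptor of Fas, ranged from 3.13 to 5.03 CPM. Fas itself was at 1.26, 6.16 and 2.40 CPM in sham and at 4.14, 3.95 and 2.22 CPM in TBI. The sham libraries spanned the TBI range in both directions, and the log2 fold change of 0.07 ± 0.60 was 0.91 without Sham2 and -0.09 without TBI1.

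The necroptosis genes were low, and Sham2 was the highest library for all 3. Of 3 members, 2 were tested, both were lower in TBI, neither had an unadjusted p under 0.05, and they had a median log2 fold change of -0.84. Ripk1, which directs TNF receptor signals towards survival or death, had the highest level per length of the group, at 1.04 CPM per kb. It was at 6.37, 11.9 and 8.23 CPM in sham and at 11.5, 10.3 and 3.65 CPM in TBI, so that TBI3 was the lowest library and Sham2 the highest (log2 fold change -0.06 ± 0.46). Leaving out TBI3 gave 0.30 for Ripk1, leaving out Sham2 gave 0.22, and leaving out TBI1 gave -0.35. Ripk3, the kinase that activates Mlkl, had the largest log2 fold change of all members in size. It was at 0.543, 1.94 and 0.104 CPM in sham and at 0.221, 0.316 and 0.309 CPM in TBI. Sham2 was the highest and Sham3 the lowest of the 6 libraries, and all TBI libraries lay between Sham3 and Sham1. Its log2 fold change of -1.61 ± 0.97 (adjusted p = 0.982) was -0.21 without Sham2. Mlkl, the executor of necroptosis, was at 0.0988, 0.623 and 0.0782 CPM in sham and at 0.112 to 0.147 CPM in TBI, below the filter of the test. Without Sham2, the median of the group was 0.01.

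In none of the inflammasome genes did the group means differ by more than the larger SD of the 2 groups. Of 6 members, 4 were higher and 2 lower in TBI, 0 were at an unadjusted p under 0.05, and the median log2 fold change was 0.11. That median was 0.57 without Sham2, -0.23 without TBI1 and 0.13 without both, and also turned its sign without Sham1 (-0.12) or Sham3 (-0.06). Nlrp3, the sensor, had the largest change of the group, and was at 1.19, 2.07 and 0.651 CPM in sham and at 2.96, 1.14 and 1.12 CPM in TBI. TBI1 was the highest library and Sham2 the next, and the other TBI libraries lay within the sham range. Its log2 fold change of 0.42 ± 0.60 (adjusted p = 0.982) was 0.92 without Sham2 and -0.20 without TBI1. Pycard, the adaptor also called ASC, was highest in Sham2 and then in TBI1, at 3.56, 11.1 and 2.58 CPM in sham and 10.5, 5.75 and 3.29 CPM in TBI (log2 fold change 0.18 ± 0.66). It shares 12.8% of its exonic bases with Gm45205 on the opposite strand.

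Casp1, the inflammatory caspase, had the highest level per length of the inflammasome genes as the mean of both groups, at 1.82 CPM per kb. In TBI alone, Gsdme at 1.82 and Pycard at 1.71 were above it, with Casp1 at 1.63. It was at 2.47, 3.56 and 3.02 CPM in sham and at 1.27, 3.63 and 2.42 CPM in TBI. TBI1 was the lowest library and TBI2 the highest, and the groups overlapped (log2 fold change -0.31 ± 0.42, adjusted p = 0.982). Casp4, which senses bacterial lipopolysaccharide inside the cell, was at 1.45 CPM in Sham2, 0.931 CPM in TBI1 and 0.225 to 0.411 CPM in the other 4 libraries. Its log2 fold change of -0.36 ± 0.86 was 0.84 without Sham2 and -1.09 without TBI1. Gsdmd, the pore protein of pyroptosis, ranged from 1.33 to 3.01 CPM (log2 fold change 0.04 ± 0.43). Gsdme, another gasdermin, was more abundant at 16.0 to 20.8 CPM in sham and 17.6 to 28.5 CPM in TBI (log2 fold change 0.35 ± 0.22, adjusted p = 0.982). The summed CPM of 8 microglial genes was highest in TBI1, at 761, against 381 to 498 in the other libraries, none was at 0 in any library, and all 8 were higher in TBI on average with 0 at an unadjusted p under 0.05. The part of microglia in these values was not tested.

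Sham2 was the highest of the 6 libraries for 17 of the 36 members (47.2%), beside 23.7% of all 18795 genes. It was above the mean of Sham1 and Sham3 for 26 members, with a median log2 ratio of 0.46, against -0.01 over all genes. By role, the medians were 0.01 in the pro-survival genes, 0.03 in the BH3-only genes, 0.59 in the effectors, 0.28 in the caspases, 0.13 in the death receptor genes, 1.65 in the 2 necroptosis genes and 0.92 in the inflammasome genes. Bcl2, Xiap, Bmf and Casp12 lay on the other side, with Sham2 below the mean of the other sham libraries by a log2 ratio of -0.45, -0.37, -0.50 and -0.31. Without Sham2, the log2 fold change turned its sign in 7 members (Mcl1, Birc2, Birc3, Trp53, Casp2, Ripk1 and Casp4). The same library held the highest level of 2 genes that these pathways control or depend on. Cdkn1a, a target of p53 that arrests the cell cycle, was at 91.9 CPM in Sham2, 4.49 and 13.5 CPM in the other sham libraries and 32.1 to 33.2 CPM in TBI. Tnfrsf1a, the receptor upstream of Tradd and Ripk1, was at 61.7 CPM in Sham2, 10.4 and 12.1 CPM in the other sham libraries and 11.7 to 34.4 CPM in TBI. The summed CPM of 8 genes of infiltrating myeloid cells was 12.6, 45.7 and 23.7 in sham and 18.4, 40.6 and 20.6 in TBI, with Ccr2, Ly6g, Retnlg and Mmp8 at 0 in at least 1 library. Most of each sum was Lyz2 (27.1 CPM in Sham2 and 30.2 CPM in TBI2), which, like Ly6c2, was highest in TBI2. Ccr2, S100a8, S100a9, Ly6g, Retnlg and Mmp8 were instead highest in Sham2. The 5 astrocyte genes summed to 2030, 5240 and 1970 CPM in sham and to 2110 to 2610 CPM in TBI, with none at 0 in any library. Most of the excess in Sham2 was Gfap, whereas Gja1 and Slc1a3 were lowest in that library, at 99.2 and 598.5 CPM against 177.1 to 329.4 and 655.5 to 898.6 CPM in the others. Aqp4 was highest in Sham2, at 401.2 CPM against 170.4 to 381.0 CPM. Aldh1l1 was at 84.9 CPM in Sham2, 67.5 and 63.8 CPM in the other sham libraries and 82.7 to 107.7 CPM in TBI. The part of the astrocyte, oligodendrocyte or myeloid markers in these values was not tested.

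**Figure D4:**
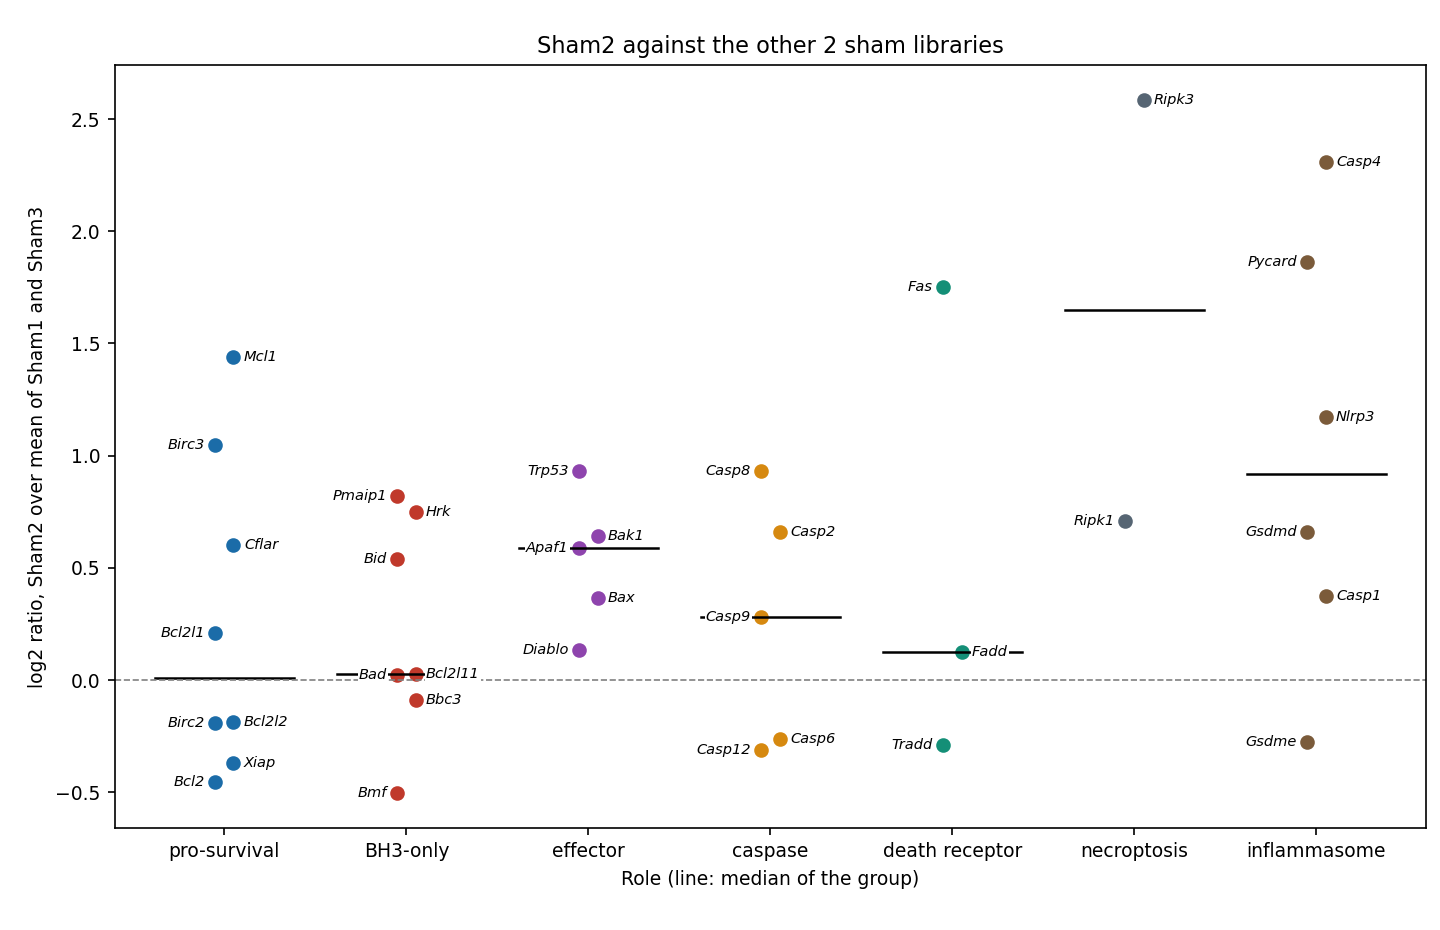
Each dot is the log2 ratio of a member in Sham2 over the mean of Sham1 and Sham3, by role, with the median of each group as a line and equality dashed. The 5 effectors and the 2 necroptosis genes all lie above 0, and Ripk3 is the highest at 2.59.

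The order of levels per length was led by Bcl2l2 (38.2 CPM per kb), Bax (36.6) and Mcl1 (32.2), as the mean of both groups. The libraries of these 3 genes overlapped, and the order of the group means was Bcl2l2, Bax and Mcl1 in sham (46.1, 38.7 and 36.4) but Bax, Bcl2l2 and Mcl1 in TBI (34.5, 30.1 and 28.0). Hrk (13.1), Bad (13.03) and Bcl2l1 (12.1) followed and overlapped each other, and Birc2 (8.75) and Bak1 (6.52) came next. At the low end of the members tested, Bcl2l11 (0.495), Casp12 (0.414), Birc3 (0.376), Nlrp3 (0.375), Ripk3 (0.250) and Casp4 (0.162) lay under 0.5 CPM per kb as this mean, with overlapping libraries. Thus Bcl2l11, the BH3-only gene with the smallest p, was also the lowest of the 7 BH3-only genes tested, and its partner Bcl2 was at 2.30 CPM per kb.

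**Figure D5:**
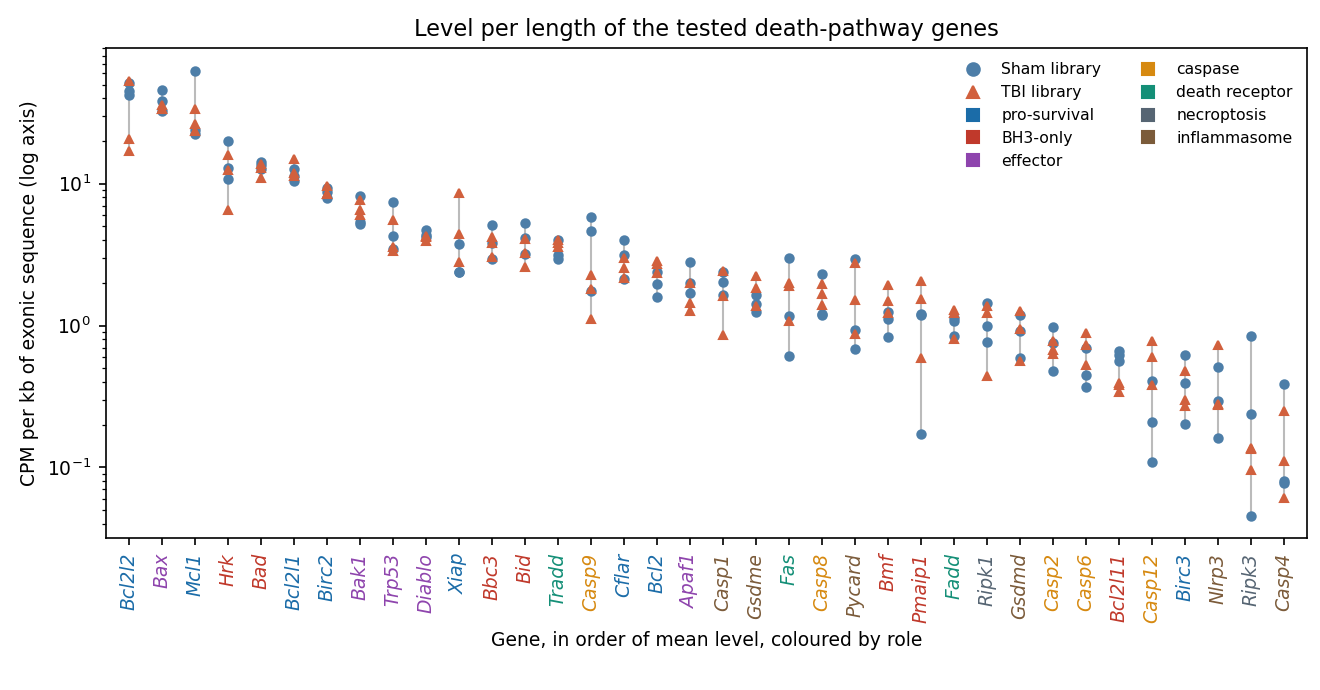
TMM-scaled CPM per kb of exonic sequence, on a log axis, for the 36 members tested in order of their mean, with circles for sham and triangles for TBI libraries and grey lines for the range. Means over both groups run from 38.2 CPM per kb for Bcl2l2 to 0.162 for Casp4, and the highest and lowest libraries of Pmaip1 and Ripk3 are 11.9-fold and 18.7-fold apart.

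Levels of partners were also set against each other within libraries, as ratios per length chosen after the values were seen and given without a test. Bcl2 over Bcl2l11 was 3.49, 2.53 and 3.57 in sham and 7.18, 6.86 and 7.07 in TBI. Every TBI library was above every sham library. Since Bcl2l11 alone already separated the groups, this ratio is not separate evidence. Bax over Bcl2 was 19.5, 28.8 and 13.7 in sham and 11.9, 14.2 and 13.4 in TBI, and overlapped. Bcl2l1 over Bax was 0.277, 0.278 and 0.349 in sham and 0.349, 0.340 and 0.415 in TBI, also with overlap. Mcl1 over Bcl2l11 was 40.1, 101.0 and 35.9 in sham and 85.0, 77.6 and 61.9 in TBI, where Sham2 alone was above the TBI libraries.

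Of 79 other genes listed for these pathways, 66 were tested, 0 were called, 3 were at an unadjusted p under 0.05 (4.55%, beside 4.29% of all genes) and 6 did not overlap between groups (9.09%, beside 10.2%). Parp1, a DNA repair enzyme cleaved by caspases, was at 126.5, 101.4 and 100.4 CPM in sham and at 77.3, 89.97 and 87.4 CPM in TBI (log2 fold change -0.37 ± 0.14, adjusted p = 0.982). Tnfrsf21, the gene of death receptor DR6, was at 134.4, 124.3 and 122.1 CPM in sham and at 83.5, 116.3 and 89.2 CPM in TBI (log2 fold change -0.40 ± 0.15, adjusted p = 0.982). Both were lower in all 3 TBI libraries, and TBI1 was the lowest. Birc5, the gene of survivin, which acts in cell division as well as against caspases, was at 0.469, 0.424 and 0.443 CPM in sham and at 2.21, 0.727 and 1.15 CPM in TBI (log2 fold change 1.61 ± 0.52, adjusted p = 0.982). It was higher in all 3 TBI libraries and highest in TBI1, without which the log2 fold change was 1.07. Of the 66 genes, 63 had a log2 fold change that moved by over 1.5 times or turned its sign without 1 of the 6 libraries, among them Parp1 (-0.24 without Sham1).

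Among the products through which these pathways act, Il18 did not overlap between the groups. Cycs, the gene of cytochrome c, ranged only from 236.5 to 277.9 CPM (log2 fold change 0.10 ± 0.10). Mdm2, the target of p53 that degrades it, ranged from 33.8 to 42.2 CPM (log2 fold change -0.15 ± 0.12). Il1b, the interleukin that Casp1 matures, was at 3.37 CPM in Sham2 and at 0.182 to 0.790 CPM in the other 5 libraries. Il18, its other interleukin, was at 15.4, 7.83 and 16.1 CPM in sham and at 16.9, 18.9 and 16.6 CPM in TBI. The TBI libraries were all above the sham libraries, by a narrow margin except over Sham2, and the log2 fold change of 0.41 ± 0.29 (adjusted p = 0.982) was 0.15 without Sham2. By list, 5 of 7 tested genes of the Bcl-2 family, 6 of 10 genes of mitochondrial release and nucleases, 2 of 7 other caspases and inhibitors, 7 of 12 genes of death ligands and receptor signalling, 7 of 15 p53 targets, 2 of 7 other necroptosis genes and 4 of 9 other inflammasome genes were higher in TBI, with Tnfrsf10b in 2 of these lists. Their median log2 fold changes lay between -0.14 and 0.11. The ligand genes Tnf and Fasl were at no more than 0.499 and 0.208 CPM in any library and were not tested.

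The width of the intervals sets what this design could show. Of the 36 members tested, 15 had a 95% interval within a log2 fold change of -1 to 1, and 5 (Bcl2l1, Birc2, Bad, Bax and Diablo) within a fold of 1.5. For the other members, a change of that size was neither shown nor bounded with 3 mice a group. In 11 of the 38 members, exonic bases are shared with another gene, and since the strandedness of the libraries is not given in the sources used here, reads of overlapping genes on opposite strands could not be told apart.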

How the data were processed

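Hippocampal RNA of 3 sham and 3 TBI mice was sequenced, 1 library per mouse, and groups were taken from the sample titles. After a check with FastQC, the authors ran HISAT2 against GRCm38 and then StringTie. They deposited estimated counts for each Ensembl gene, which are whole and not normalized. The sources used here do not give the versions of these tools, the annotation release, the strandedness or how coverage became counts. Low values pile up at multiples of 4 (the value 4 occurred 5109 times and 3 occurred 2325 times), and counting intervals were therefore not computed.

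Of 52550 identifiers, 52403 were matched to symbols through GENCODE vM21, which also gave exons and exonic lengths. In R 4.3.3, counts were filtered with filterByExpr by group (18795 genes kept), scaled by TMM and tested with the quasi-likelihood test of edgeR 4.0.16 with Benjamini-Hochberg adjustment over all genes tested. The SE is the size of the log2 fold change over the square root of F. CPM per kb is TMM-scaled CPM over the union of exons. Promoters were read from a RefSeq table on GRCm38.p6, which held 34 of the 38 members. The code was also run on simulated counts, with no outcome given here, a check that does not measure its power on these data.

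The members, the lists of other pathway genes and markers and the tests were chosen with earlier results of these data known. Values in every library are given for members with an unadjusted p under 0.05, without overlap between groups, or with the largest change or the highest level per length of their role. Those of Bcl2, Mcl1, Fas, Pycard and of the members given by range were added for their role. Alternatives were DESeq2 1.42.0 (with defaults, or on the same genes without independent filtering), library totals, upper-quartile scaling, DESeq2 size factors, looser (1 count in any library) and stricter (10 counts in every library) filters, counts divided by 4, robust dispersions, an adjusted p of 0.05, no fold change threshold, the replicate number as a block and each library left out in turn.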

Additional observations from a re-analysis of the deposited data

How the results depend on the processing

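No member was called under any of the alternatives, and the lowest adjusted p of a member was 0.323 (Bcl2l11, DESeq2 without independent filtering). Of 608 member values, 35 had the opposite sign, in 17 members, and 19 members kept their sign throughout. The count of members at an unadjusted p under 0.05 (2) was 4 under both DESeq2 settings, and 1 to 4 when single libraries were left out, with Bcl2l11 lost only without Sham3. The count of members without overlap (1) was 2 to 10 with single libraries left out, where fewer samples made 17.5% to 22.7% of all genes separate, and 8 (22.2%, beside 37.1% of all genes) without Sham2 and TBI1. The count of other pathway genes at that p (3) was 1 to 3 with single libraries left out, beside 2.49% to 5.82% of all genes, and 5 without both, beside 5.02%.

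The same replicate numbers did not pair the libraries (correlations of their deviations -0.0996, -0.065 and 0.153), and with the replicate number as a block 2 members (Bcl2l11 and Casp12, 5.56%) and 1 other pathway gene were at that p, beside 3.85% of all genes. The median of the necroptosis genes was -0.05 with at least 10 counts in every library (-0.0546) and with counts divided by 4 (-0.0525), settings that drop Ripk3, -0.0633 without Sham2 and TBI1, and -1.12 to 0.00527 with single libraries left out. With single libraries left out, the medians ranged from -0.0962 to 0.219 in the pro-survival genes and from -0.233 to 0.565 in the inflammasome genes. The other 112 of 119 medians moved by less than the spread between libraries. Some of them still crossed 0, in the caspases and in the death receptor, inflammasome and pro-survival genes.

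Without both Sham2 and TBI1, the log2 fold change turned to 0.116 in Mcl1, -0.00542 in Birc2, 0.0126 in Bid, 0.183 in Casp2, 0.138 in Casp1, 0.118 in Casp4 and -0.00626 in Gsdmd. With single libraries left out, it crossed 0 in Mcl1 (-0.622 to 0.273), Birc2 (-0.0431 to 0.0814), Birc3 (-0.541 to 0.22), Bbc3 (-0.290 to 0.13), Bak1 (-0.0083 to 0.357), Trp53 (-0.533 to 0.11), Casp2 (-0.329 to 0.161), Casp8 (-0.0622 to 0.485), Fas (-0.307 to 0.910), Fadd (-0.00749 to 0.301), Ripk1 (-0.347 to 0.297), Nlrp3 (-0.203 to 0.923), Pycard (-0.350 to 1.09), Casp1 (-0.717 to 0.00241), Casp4 (-1.09 to 0.840) and Gsdmd (-0.262 to 0.291). The causes of these shifts were not tested. Low counts kept Bik and Mlkl out of the test, and 3 mice a group limit all members.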

Other observations

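Per length, 7 genes of the same pathways outside the 38 (Vdac1, Cycs, Bok, Sept4, Bnip3, Plk2 and Bnip3l) had a higher mean level over all 6 libraries than Bcl2l2, the highest of the 38 by that mean. In sham alone, Sept4 (41.4 CPM per kb) and Bnip3l (37.3) lay below Bcl2l2 (46.1). Vdac1, the channel of the outer mitochondrial membrane, was at 209.7 CPM per kb of exonic sequence, with a range of 515.0 to 606.2 CPM over the 6 libraries. Bok, the relative of Bax and Bak, was at 59.9 CPM per kb, above Bcl2l2 at 38.2, with levels of 160.7, 87.9 and 123.6 CPM in sham and 64.0, 119.7 and 105.0 CPM in TBI, with overlap. Faim2, a neuronal inhibitor of Fas signalling, was at 32.3 CPM per kb, whereas Fas was at 1.63 CPM per kb. These genes were chosen after their values were seen.

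Besides Parp1, Tnfrsf21, Birc5 and Il18, the other pathway genes without overlap between groups were Rbck1 and Phlda3. Rbck1, a subunit of the linear ubiquitin ligase that acts on TNF receptor complexes, was at 78.2, 64.0 and 80.0 CPM in sham and at 129.1, 85.7 and 84.1 CPM in TBI (log2 fold change 0.43 ± 0.20, edgeR adjusted p = 0.982, and 0.20 without TBI1). Phlda3, a p53 target that restrains Akt, was at 41.9, 33.2 and 40.7 CPM in sham and at 48.1, 43.6 and 47.2 CPM in TBI (log2 fold change 0.26 ± 0.14, adjusted p = 0.982, and 0.16 without Sham2). For both, TBI1 was the highest library and Sham2 the lowest.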
